A study of Mus musculus with 18 samples.

Results

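The 38 genes described here are markers of endothelial cells, the cells that line blood and lymph vessels, and they were followed through libraries made from mouse lung epithelial cells. The genes were taken from a list of endothelial symbols, and Ensembl identifiers in the deposited values were mapped to them. All 38 were present among the 15544 genes of the series, and all 38 were among the 15249 tested. RNA was prepared from lung cells that had been captured on magnetic beads through EpCAM, an adhesion protein of the epithelial surface, in animals aged 10 to 12 weeks. There were 4 genotypes: wild type (5 libraries, numbered 1 to 5), Falcor-/- (5 libraries, numbered 6 to 10), Foxa2+/- (4 libraries, numbered 11 to 14) and Double-Het, whose labelled genotype is Falcor+/-;Foxa2+/- (4 libraries, numbered 15 to 18). Falcor is a long non-coding RNA whose gene lies beside Foxa2, and Foxa2 is a forkhead transcription factor of lung epithelium. By label the wild type controls carry neither mutant allele. The strain, the construction of the alleles and the number of animals behind a library were not stated in the labels. P-values below therefore measure the spread between these libraries, which may be partly technical.

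Endothelial cells join to each other through VE-cadherin (Cdh5), claudin 5 (Cldn5) and PECAM1 (Pecam1). They read the growth factors VEGF and angiopoietin through receptor tyrosine kinases (Kdr, Flt1, Tek, with Tie1 as a partner receptor), and they keep their identity through ETS and SOX factors such as Erg and Sox17. In the lung the alveolar wall is a mesh of capillaries: Plvap and Aplnr mark general capillary cells, while Car4 and Ednrb mark aerocytes, the capillary cells of gas exchange. Gja4 and Gja5 are connexins of arteries, and Lyve1, Prox1 and Flt4 are genes of lymphatic vessels. Endothelial cells do not carry EpCAM, and the beads were not meant to hold them.

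The targeted genes were checked first. The level of Falcor (annotated as 9030622O22Rik), on the log2 scale of the deposited values, was 9.68 to 10.72 in wild type and 5.39 to 7.27 in Falcor-/-. It was 11.46 to 11.96 in Foxa2+/- and 11.50 to 11.86 in the libraries labelled Double-Het, above every wild type library in both. The label gives Double-Het a single Falcor copy. A transcript level does not count gene copies, and whether the mutant allele keeps the counted transcript was not stated. Double-Het below therefore names the libraries by their label. Foxa2 fell, with a change of -0.57 in Foxa2+/- (limma adjusted p = 0.00245) and of -0.60 in Double-Het (limma adjusted p = 0.000891). In Falcor-/- Foxa2 was at 12.85, 12.58, 12.99, 12.83 and 12.42 in replicates 6 to 10, against 12.83 to 13.03 in wild type. Falcor-/- replicate 10 thus lay within the Foxa2+/- range of 12.35 to 12.47. Epcam itself was between 13.75 and 14.48 in all 18 libraries and passed the test against wild type in no mutant genotype (limma adjusted p between 0.0700 and 0.709).

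Endothelial transcripts had lower means in each mutant genotype, and most of them passed the test only in the genotypes with 1 functional Foxa2 copy by label. In Foxa2+/- 33 of the 38 genes fell against wild type and 0 rose, where 4.15% of all genes tested fell and 1.96% rose. In Double-Het 35 of the 38 fell and 0 rose, where 7.57% of all genes tested fell and 7.21% rose. In Falcor-/- 3 of the 38 fell (Ptprb, Thbd and Lyve1) and 0 rose, where 4.24% of all genes tested fell and 5.23% rose. A count of 3 in 38 cannot be told from the Falcor-/- share. A gene is said to have fallen or risen where limma's adjusted p (Benjamini-Hochberg over 15249 genes) was below 0.05.

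The median difference of the 38 genes from wild type was -0.84 log2 units in Falcor-/-, or 56.0% of the wild type level. It was -2.15 in Foxa2+/- (22.5%) and -2.55 in Double-Het (17.1%). Over all genes tested the medians were 0.03, 0.04 and 0.07. All 38 genes had a lower mean than wild type in each mutant genotype, where 46.0%, 40.6% and 38.9% of all genes tested had one. The libraries of the 2 genotypes did not overlap for 33 genes in Foxa2+/- (5.48% of all genes tested lay lower without overlap) and for 34 in Double-Het (7.1%). In Falcor-/- 0 of the 38 genes lay lower without overlap (2.31%). The 3 comparisons share the same 5 wild type libraries, so their agreement is not independent. In bulk RNA, fewer endothelial cells in a sample and less of these transcripts per cell cannot be told apart.

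**Figure D1:**
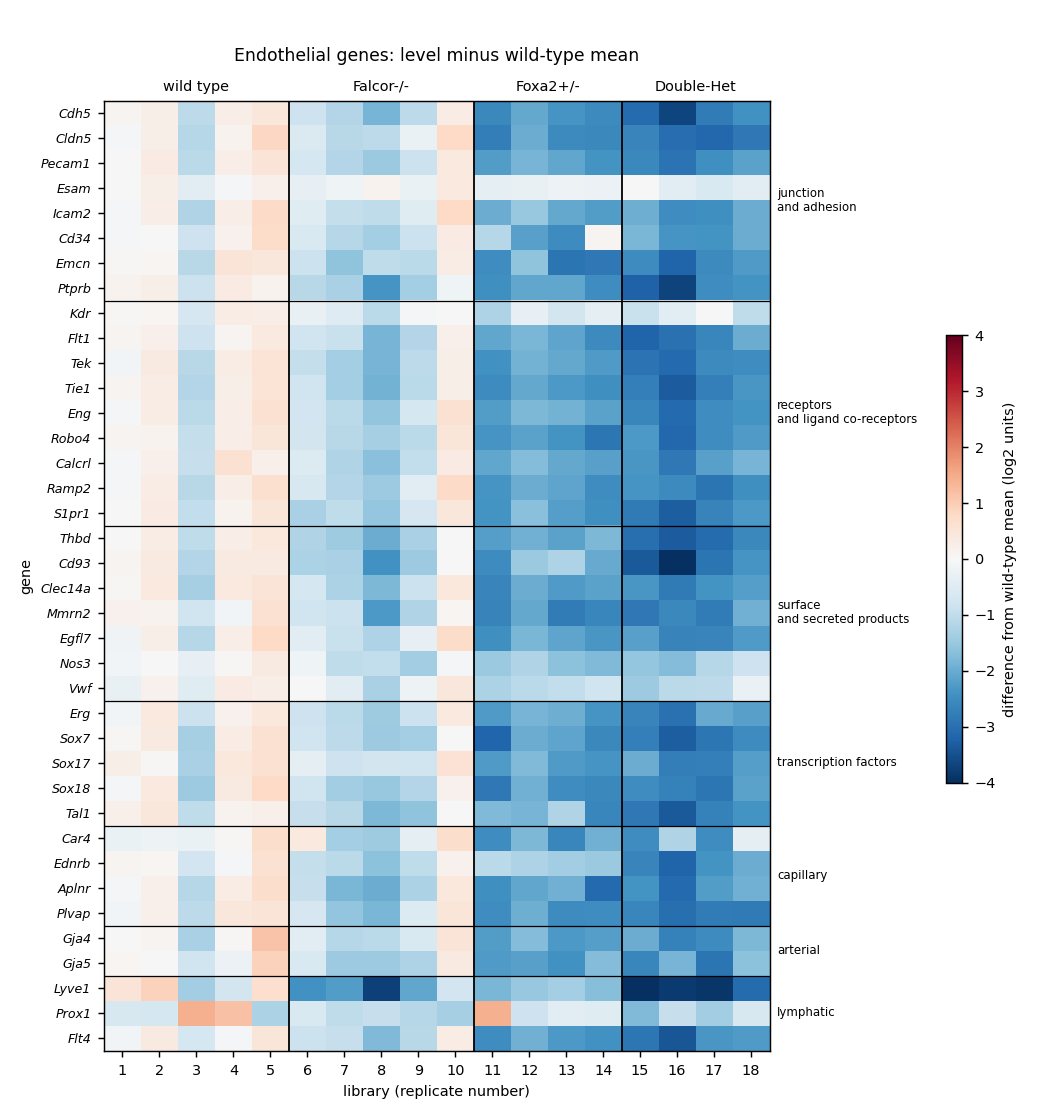
Level of each of the 38 endothelial genes in each of the 18 libraries, minus that gene's wild type mean (log2 units, colour scale), with genes grouped by role and libraries by genotype. Foxa2+/- and Double-Het libraries are low in nearly every row, replicate 3 stands below the other wild type libraries and replicate 10 above the other Falcor-/- libraries, while Esam and Kdr are nearer to wild type and Prox1 is uneven.

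Within genotypes these genes moved together from library to library. Wild type replicate 3 was the lowest wild type library for 37 of the 38 genes, with Prox1 as the exception, and its median distance from the wild type mean was -1.03 log2 units. Falcor-/- replicate 10 was the highest Falcor-/- library for 37 of the 38, again with Prox1 as the exception. Its median distance from the wild type mean was 0.33, while the other Falcor-/- libraries were at -0.75, -1.13, -1.49 and -1.03. The median SD within a genotype was 0.62 for the 38 genes against 0.17 for all genes tested in wild type, 0.75 against 0.23 in Falcor-/-, 0.28 against 0.14 in Foxa2+/- and 0.41 against 0.20 in Double-Het.

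The Falcor-/- result depended on those libraries. Without Falcor-/- replicate 10, 26 of the 38 genes fell in Falcor-/- and the median difference was -1.14. Without wild type replicate 3, 21 fell and the median was -1.06. Without both, an alternative added after the values were seen, 32 fell and the median was -1.36. The 6 genes that did not pass in that fit were Esam, Cd34, Kdr, Vwf, Car4 and Prox1. Both libraries were picked for their levels of these same genes, so a wider difference was built into that choice and is not separate support. In the other direction, leaving out wild type replicate 1, 2 or 4 or Falcor-/- replicate 6, 8 or 9 left 1 gene, Lyve1, and leaving out Falcor-/- replicate 7 gave 5. A fit of these 2 genotypes alone called 0 of the 38. In the fit of all libraries 4.24% of all genes tested fell. Calls over all genes in this comparison also moved between these fits, with the counts given under the dependence on processing below. The counts of endothelial genes are therefore not set against 1 fixed share. In Foxa2+/- and Double-Het the counts without wild type replicate 3 stayed within 1.5 times those of all libraries. With 33 and 35 of the 38 genes already counted, a rise beyond that was not possible. The 2 sets of counts therefore cannot be compared for steadiness with those of Falcor-/-.

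**Figure D2:**
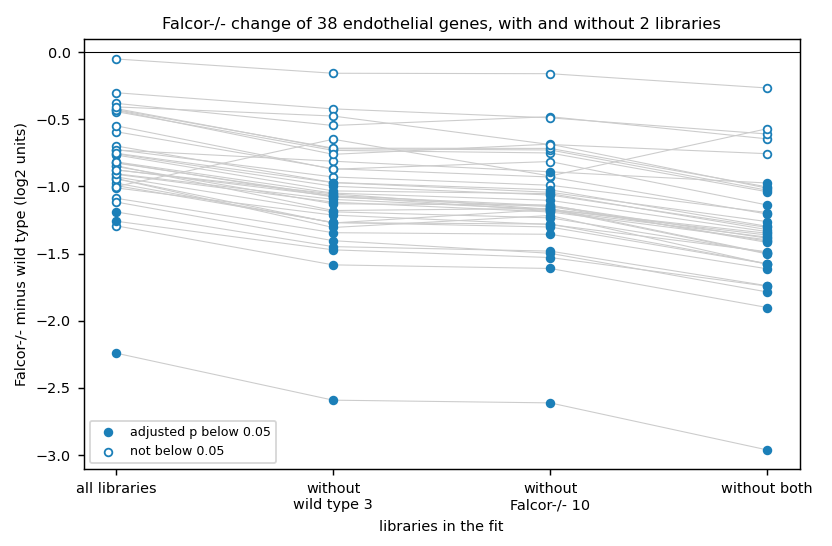
Difference of each of the 38 genes between Falcor-/- and wild type (log2 units). From left to right are the fit of all 18 libraries and fits without wild type replicate 3, without Falcor-/- replicate 10 and without both. Filled points have an adjusted p below 0.05. In that order the filled points number 3, 21, 26 and 32, and the medians are -0.84, -1.06, -1.14 and -1.36. Calls over all genes also moved between fits. The fit without both leaves out libraries that were picked for their levels of these genes.

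Junction and adhesion genes, 8 in the list, fell in 1 case in Falcor-/-, in 6 in Foxa2+/- and in 7 in Double-Het. Over all genes tested 4.24%, 4.15% and 7.57% fell, and a count of 1 in so short a list cannot be told from the Falcor-/- share. The median differences were -0.75, -2.21 and -2.58. Cdh5, which builds the adherens junction between endothelial cells, stood at 14.46, 14.58, 13.31, 14.62 and 14.79 in wild type, 13.51, 13.17, 12.49, 13.30 and 14.64 in Falcor-/-, 11.77, 12.30, 11.99 and 11.80 in Foxa2+/-, and 11.26, 10.69, 11.57 and 11.93 in Double-Het. Every Foxa2+/- and Double-Het library lay below every wild type library, and Falcor-/- replicate 10 lay within the wild type range. Cdh5 fell to 19.1% of wild type in Foxa2+/- (change -2.39 ± 0.36 SE, limma adjusted p = 0.000775) and to 12.6% in Double-Het (-2.99 ± 0.36, limma adjusted p = 6.13e-05). In Falcor-/- the difference was -0.93 (limma adjusted p = 0.0770).

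Cldn5, the claudin of endothelial tight junctions, had levels of 13.41, 13.71, 12.32, 13.62 and 14.31 in wild type, 12.91, 12.36, 12.44, 13.20 and 14.26 in Falcor-/-, 10.72, 11.50, 10.93 and 10.90 in Foxa2+/-, and 10.82, 10.42, 10.32 and 10.61 in Double-Het. The groups again did not overlap for Foxa2+/- and Double-Het, at 18.1% and 13.1% of the wild type level (limma adjusted p = 0.000754 and 7.50e-05). Pecam1, an adhesion molecule of endothelium, platelets and some leukocytes, read 13.90, 14.23, 12.84, 14.17 and 14.43 in wild type, 13.21, 12.73, 12.44, 13.07 and 14.30 in Falcor-/-, 11.69, 12.07, 11.84 and 11.52 in Foxa2+/-, and 11.35, 10.95, 11.47 and 11.78 in Double-Het. It fell, with changes of -2.13 in Foxa2+/- and -2.53 in Double-Het (limma adjusted p = 0.000887 and 0.000103), with no overlap in either.

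Esam, an adhesion molecule of endothelial tight junctions, was the exception in this group. Its levels were 13.55, 13.76, 13.11, 13.49 and 13.75 in wild type, 13.20, 13.35, 13.68, 13.26 and 13.92 in Falcor-/-, 13.16, 13.24, 13.32 and 13.31 in Foxa2+/-, and 13.52, 13.10, 12.92 and 13.10 in Double-Het. All 4 genotypes overlapped, and the differences from wild type were -0.05 in Falcor-/-, -0.27 in Foxa2+/- and -0.37 in Double-Het, the last with a 95% interval of -0.70 to -0.05 and a limma adjusted p of 0.118. Without wild type replicate 3 the Double-Het difference was -0.48 and passed (limma adjusted p = 0.0390), as it did at -0.64 with libraries centred on epithelial genes (limma adjusted p = 0.00660).

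The other 4 junction and adhesion genes were Icam2, a leukocyte ligand, Emcn, a sialomucin of capillaries and veins, Ptprb, a phosphatase that acts on Tek and Cdh5, and Cd34, a sialomucin also found on stem and stromal cells. Emcn fell, with changes of -2.47 in Foxa2+/- and -2.63 in Double-Het, as did Icam2, with -1.95 and -2.21. Ptprb fell in all 3 genotypes, with changes of -1.26, -2.28 and -2.95, and the Falcor-/- call (limma adjusted p = 0.0310) was lost without wild type replicate 1, 2 or 4 or Falcor-/- replicate 6, 8 or 9, where its adjusted p reached 0.0775. Cd34 fell by 2.15 in Double-Het (limma adjusted p = 0.00370). In Foxa2+/- its difference was -1.44 (limma adjusted p = 0.0668), with replicate 14 at 11.54 and the other 3 libraries at 8.91 to 10.28, and without replicate 14 it was -1.95 and passed (limma adjusted p = 0.00625). It also passed without wild type replicate 3 (-1.64, limma adjusted p = 0.0364).

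Receptors and their co-receptors, 9 genes, fell in 0, 8 and 8 cases in Falcor-/-, Foxa2+/- and Double-Het, beside the same shares over all genes tested. Their medians were -0.82, -2.16 and -2.65. Kdr, the main signalling receptor for VEGF-A, was the 1 that did not pass in either Foxa2 genotype. Its levels were 12.99, 13.02, 12.29, 13.24 and 13.23 in wild type, 12.67, 12.45, 11.89, 12.88 and 12.97 in Falcor-/-, 11.73, 12.62, 12.23 and 12.59 in Foxa2+/-, and 12.06, 12.49, 12.93 and 11.93 in Double-Het. The groups overlapped in every comparison, and the Kdr difference was -0.66 in Foxa2+/- (95% interval -1.21 to -0.11, limma adjusted p = 0.160) and -0.60 in Double-Het (-1.15 to -0.05, limma adjusted p = 0.130). The lower ends of these Kdr intervals lie above the values of Flt1, the decoy receptor for the same ligand, which fell with changes of -2.14 and -2.69. In Double-Het Kdr passed with library weights (adjusted p = 0.0295), with libraries centred on epithelial genes (0.0222) and without both wild type replicate 3 and Falcor-/- replicate 10 (0.0498).

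Tek, the angiopoietin receptor, and Tie1, its partner, fell, with changes of -2.16 and -2.34 in Foxa2+/- and of -2.77 and -2.79 in Double-Het. Eng, a co-receptor for BMP9 and TGF-beta, fell in the same genotypes, with changes of -2.02 and -2.65. Robo4, a receptor that steadies vessel walls, had changes of -2.45 and -2.55. Calcrl and Ramp2 together form the adrenomedullin receptor, and these partners fell by similar amounts, with changes of -2.01 and -2.23 in Foxa2+/- and of -2.31 and -2.57 in Double-Het. S1pr1, the receptor through which sphingosine 1-phosphate tightens the endothelial barrier, had changes of -2.19 and -2.78. For these 8 receptors no Foxa2+/- or Double-Het library overlapped a wild type library. The largest limma adjusted p among them was 0.00191, for Eng in Foxa2+/-.

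**Figure D3:**
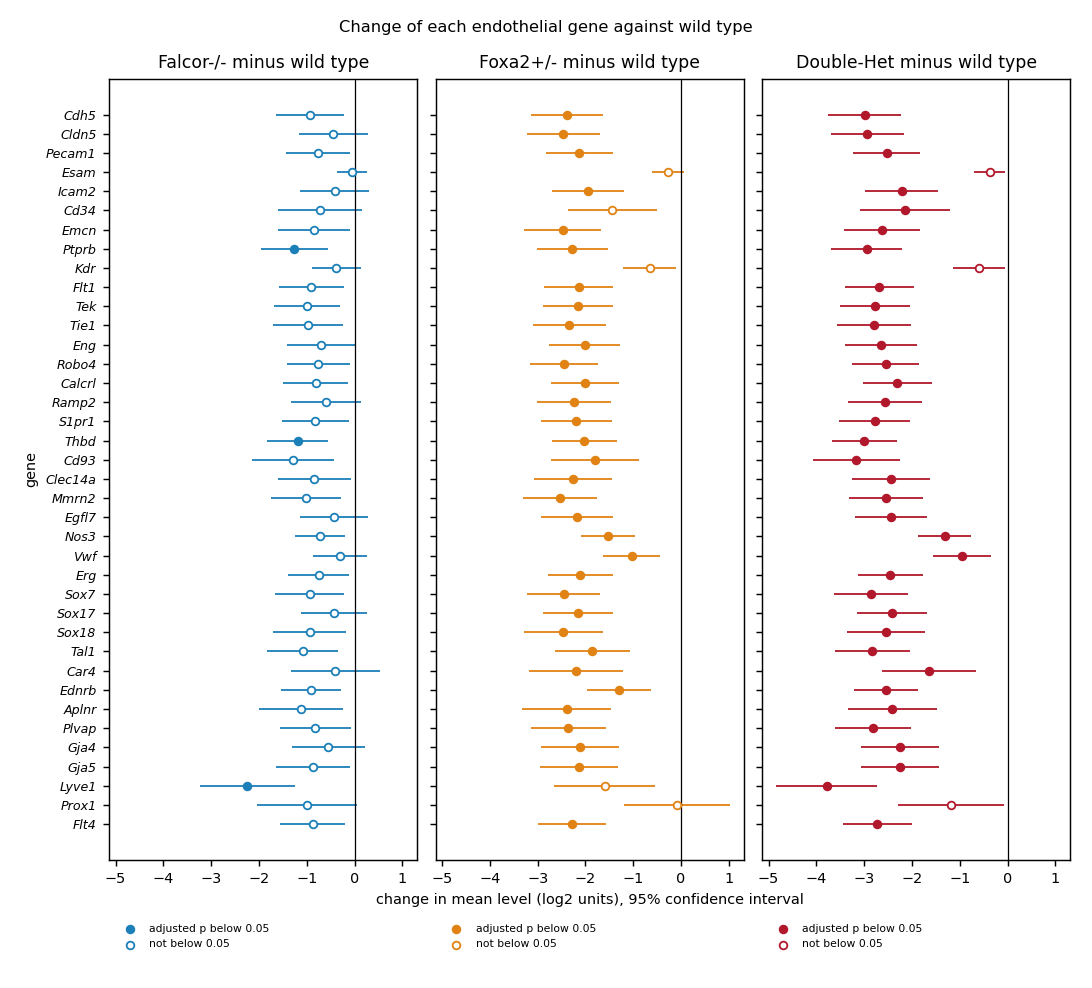
Change of each of the 38 genes against wild type (log2 units, with 95% confidence intervals) in Falcor-/-, Foxa2+/- and Double-Het, in 3 panels; filled points have an adjusted p below 0.05. Medians are -0.84, -2.15 and -2.55 from left to right, and the points of Esam, Kdr and Prox1 are unfilled in all 3 panels.

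Promoter sequence was available for 20 of the 38 genes, in 26 windows of RefSeq on GRCm38.p6, and is shown for receptors and an adhesion gene that fell, with (Flt1, Tie1, Emcn) and without (Tek) the motif marked below, beside the receptor that did not pass (Kdr). Each window is the 250 bases before a transcript start, printed on the strand of the gene. Capitals mark AGGAAG or its reverse complement, 1 of the sequences that ETS factors such as Erg can bind. A window without AGGAAG can still hold other ETS sequences, which are not marked. The windows are Flt1 at chr5:147726012-147726261 (minus strand), Tie1 at chr4:118489850-118490099 (minus), Emcn at chr3:137340828-137341077 (plus), Tek at chr4:94739039-94739288 (plus) and Kdr at chr5:75978456-75978705 (minus).
Flt1: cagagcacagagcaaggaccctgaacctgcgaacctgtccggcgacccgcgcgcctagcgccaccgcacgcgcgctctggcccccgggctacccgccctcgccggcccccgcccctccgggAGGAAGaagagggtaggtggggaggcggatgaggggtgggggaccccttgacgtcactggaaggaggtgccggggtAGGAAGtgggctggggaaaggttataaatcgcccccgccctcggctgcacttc
Tie1: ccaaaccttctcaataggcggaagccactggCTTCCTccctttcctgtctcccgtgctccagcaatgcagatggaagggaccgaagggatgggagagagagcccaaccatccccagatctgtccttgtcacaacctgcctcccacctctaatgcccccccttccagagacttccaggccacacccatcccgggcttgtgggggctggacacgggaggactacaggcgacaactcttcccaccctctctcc
Emcn: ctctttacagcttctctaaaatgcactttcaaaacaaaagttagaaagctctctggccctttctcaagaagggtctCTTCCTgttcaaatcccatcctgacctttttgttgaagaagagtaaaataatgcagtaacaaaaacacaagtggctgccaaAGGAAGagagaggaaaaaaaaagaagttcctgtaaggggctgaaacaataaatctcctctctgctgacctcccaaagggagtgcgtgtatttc
Tek: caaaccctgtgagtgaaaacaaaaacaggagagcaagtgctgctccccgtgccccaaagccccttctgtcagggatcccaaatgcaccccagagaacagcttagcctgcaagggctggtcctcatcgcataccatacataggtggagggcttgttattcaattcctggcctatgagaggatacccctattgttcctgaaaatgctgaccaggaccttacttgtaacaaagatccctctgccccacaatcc
Kdr: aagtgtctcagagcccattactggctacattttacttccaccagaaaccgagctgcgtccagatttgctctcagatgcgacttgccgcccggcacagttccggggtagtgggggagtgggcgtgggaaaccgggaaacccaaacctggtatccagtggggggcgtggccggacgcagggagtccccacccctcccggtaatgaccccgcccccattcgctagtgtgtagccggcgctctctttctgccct
The Flt1 and Emcn windows each held 2 matches, Tie1 held 1, and Tek and Kdr held 0. Genes fell with and without it: of the 10 genes with a match, 9 fell in both Foxa2 genotypes, and of the 10 with no match in any window, 8 did (Cldn5, Tek, Clec14a, Tal1, Car4, Ednrb, Gja4 and Flt4). Over all genes tested 4.15% fell in Foxa2+/- and 7.57% in Double-Het, and the share that fell in both was not counted. Because 33 and 35 of the 38 genes fell, most genes of any such split would have fallen, so these counts say nothing about the motif. Cd34, which did not pass in Foxa2+/-, held 1 match. Over both strands, AGGAAG was in 11 of the 26 windows, or 42.3%, and in 29.5% of all 32851 promoter windows of the same length. CAGGAA, which overlaps it by 5 letters, was in 42.3% against 25.7%. Among 8 motifs searched on both strands, the SOX core AACAAT was in 15.4% of the windows against 9.42% of all. The forkhead motif GTAAACA was in 0 of the 26 windows (3.17% of all), and the forkhead motif TGTTTGC in 11.5% (4.3%). The KLF motif CCCCTCCC was in 15.4% (10.9%). The motif AGATAA, bound by factors of the Gata family, was in 7.69% (9.99%). A shorter form contained in it, without the first letter (GATAA), was in 11.5% (22.6%). A match describes these letters only and is not a bound site.

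Surface and secreted products of endothelium, 7 genes, fell in 1 case in Falcor-/- and in all 7 in Foxa2+/- and Double-Het. Over all genes tested 4.24%, 4.15% and 7.57% fell. The medians of the 7 genes were -0.85, -2.02 and -2.44. Thbd, thrombomodulin, the anticoagulant cofactor of the vessel surface, was at 14.45, 14.74, 13.41, 14.71 and 14.87 in wild type, 13.23, 13.0, 12.45, 13.13 and 14.41 in Falcor-/-, 12.22, 12.50, 12.28 and 12.65 in Foxa2+/-, and 11.41, 11.11, 11.37 and 11.86 in Double-Het. It fell in all 3 genotypes, to 43.8%, 24.6% and 12.5% of wild type (limma adjusted p = 0.0285, 0.000947 and 3.69e-05). All 4 Double-Het libraries lay below all 4 Foxa2+/- libraries, which lay below every wild type library. The Falcor-/- call for Thbd was lost without the same 6 libraries as that of Ptprb (wild type replicates 1, 2 and 4, Falcor-/- replicates 6, 8 and 9), with an adjusted p of up to 0.0725, and Falcor-/- replicate 10 was again inside the wild type range.

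Cd93, a lectin-like surface receptor of endothelium that myeloid cells also carry, had levels of 14.29, 14.56, 13.03, 14.54 and 14.54 in wild type, 12.93, 12.88, 11.78, 12.74 and 14.17 in Falcor-/-, 11.67, 12.72, 12.97 and 12.19 in Foxa2+/-, and 10.84, 10.19, 11.26 and 11.84 in Double-Het. It fell, with a change of -1.80 in Foxa2+/- (limma adjusted p = 0.0181) and of -3.16 in Double-Het (limma adjusted p = 0.000140). The Foxa2+/- call was lost without Foxa2+/- replicate 11 (adjusted p = 0.0631) or replicate 14 (0.0529). Clec14a and Mmrn2, a surface lectin and the matrix protein that binds it, fell, with changes of -2.26 and -2.52 in Foxa2+/- and of -2.44 and -2.54 in Double-Het. Egfl7, a secreted factor of growing vessels, fell in both as well (-2.17 and -2.43).

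Nos3 and Vwf fell by less. Nos3, the endothelial nitric oxide synthase, had changes of -1.53 in Foxa2+/- and -1.31 in Double-Het (limma adjusted p = 0.00165 and 0.00302). Vwf, the clotting factor stored in endothelial granules, was at 12.31, 12.76, 12.11, 12.91 and 12.87 in wild type, 12.59, 12.15, 11.29, 12.39 and 13.04 in Falcor-/-, 11.33, 11.50, 11.61 and 11.80 in Foxa2+/-, and 11.15, 11.51, 11.54 and 12.33 in Double-Het. Double-Het replicate 18 lay inside the wild type range, and the other 3 Double-Het libraries and all Foxa2+/- libraries lay below it. The change of Vwf was -1.04 in Foxa2+/- (limma adjusted p = 0.0396) and -0.96 in Double-Het (limma adjusted p = 0.0322). Neither call was stable: the first was lost in 8 of 9 fits without 1 library (wild type replicate 3 was the library whose removal kept it) and the second in 6 of 9 (wild type replicates 2, 4 and 5, Double-Het replicates 15, 16 and 17), with adjusted p of up to 0.0980 and 0.117.

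Transcription factors of endothelial identity, 5 genes, fell in 0 cases in Falcor-/- and in all 5 in Foxa2+/- and Double-Het, beside the same shares. Their medians were -0.94, -2.16 and -2.55. Erg, the ETS factor that maintains the mature endothelial state, was at 11.09, 11.56, 10.31, 11.35 and 11.61 in wild type, 10.37, 10.11, 9.75, 10.33 and 11.59 in Falcor-/-, 8.93, 9.32, 9.22 and 8.84 in Foxa2+/-, and 8.54, 8.21, 9.18 and 9.0 in Double-Het. Foxa2+/- and Double-Het libraries reached at most 9.32, and the lowest wild type library was at 10.31. Erg fell to 23.2% and 18.3% of wild type (limma adjusted p = 0.000865 and 0.000104). The SOX factors Sox7, Sox17 and Sox18, which act together in vessel formation, fell, with changes of -2.46, -2.16 and -2.46 in Foxa2+/- and of -2.86, -2.42 and -2.55 in Double-Het. Tal1, a factor of blood and endothelial precursors, fell as well (-1.86 and -2.83). None of the 5 overlapped wild type in either genotype.

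Capillary genes, 4 in the list, fell in 0, 4 and 4 cases, beside the same shares over all genes tested, with medians of -0.86, -2.28 and -2.48. Car4, carbonic anhydrase 4 of the capillary surface, was at 11.20, 11.25, 11.19, 11.52 and 12.16 in wild type, 11.86, 10.11, 10.04, 11.10 and 12.18 in Falcor-/-, 8.98, 9.68, 8.87 and 9.54 in Foxa2+/-, and 8.97, 10.25, 8.98 and 11.07 in Double-Het. It fell by 2.20 in Foxa2+/- (limma adjusted p = 0.00793). In Double-Het it fell by 1.65 (limma adjusted p = 0.0259), with replicates 16 and 18 at 10.25 and 11.07 and the other 2 near the Foxa2+/- levels. That call was lost without wild type replicate 5 (adjusted p = 0.0617) and without Double-Het replicate 15 (0.0993) or 17 (0.0771).

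Ednrb, the endothelin receptor of aerocytes, also found on some stromal cells, was at 10.37, 10.34, 9.51, 10.23 and 10.89 in wild type, 9.31, 9.20, 8.62, 9.26 and 10.43 in Falcor-/-, 9.19, 9.02, 8.88 and 8.79 in Foxa2+/-, and 7.63, 7.07, 7.89 and 8.29 in Double-Het. Its change was -1.30 in Foxa2+/- (limma adjusted p = 0.0193) and -2.55 in Double-Het (limma adjusted p = 7.50e-05), and all Double-Het libraries lay below all Foxa2+/- libraries. The difference between those genotypes, -1.25 ± 0.33 SE, had a limma adjusted p of 0.0573. The Foxa2+/- call was lost without wild type replicate 5 (adjusted p = 0.0576), Foxa2+/- replicate 13 (0.0616) or replicate 14 (0.0582).

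Aplnr, the apelin receptor of general capillary cells, was at 10.83, 11.06, 9.72, 11.17 and 11.58 in wild type, 9.96, 9.05, 8.88, 9.60 and 11.28 in Falcor-/-, 8.41, 8.78, 8.94 and 7.77 in Foxa2+/-, and 8.48, 7.75, 8.65 and 8.95 in Double-Het. It fell to 19.0% of wild type in Foxa2+/- and to 18.8% in Double-Het (limma adjusted p = 0.00264 and 0.00143), with no overlap. Plvap, which forms the diaphragms of caveolae and fenestrae, was at 13.85, 14.16, 12.94, 14.42 and 14.49 in wild type, 13.31, 12.40, 12.15, 13.44 and 14.47 in Falcor-/-, 11.48, 12.02, 11.47 and 11.50 in Foxa2+/-, and 11.37, 10.95, 11.17 and 11.13 in Double-Het. It fell to 19.5% and 14.2% (limma adjusted p = 0.000947 and 0.000112), also with no overlap. Both aerocyte genes and both general capillary genes fell in both Foxa2 genotypes.

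Arterial genes were the connexins Gja4 and Gja5, through which arterial endothelial cells couple electrically. Gja4 was at 10.60, 10.70, 9.31, 10.66 and 11.74 in wild type, 10.15, 9.46, 9.53, 10.0 and 11.12 in Falcor-/-, 8.36, 8.88, 8.30 and 8.39 in Foxa2+/-, and 8.63, 7.90, 8.10 and 8.81 in Double-Het. Gja5, which atrial muscle also carries, was at 8.69, 8.63, 7.83, 8.39 and 9.54 in wild type, 8.02, 7.16, 7.17, 7.38 and 8.96 in Falcor-/-, 6.36, 6.44, 6.20 and 6.88 in Foxa2+/-, and 6.02, 6.75, 5.68 and 6.99 in Double-Het. For both genes the Foxa2+/- and Double-Het libraries lay below every wild type library. Gja4 fell, with changes of -2.12 and -2.24 (limma adjusted p = 0.00250 and 0.000907), and so did Gja5, with -2.14 and -2.25 (limma adjusted p = 0.00236 and 0.000891). In Falcor-/- the differences were -0.55 and -0.88, with limma adjusted p of 0.294 and 0.110. Beside these, the capillary medians were -2.28 and -2.48 in the Foxa2 genotypes, and the difference between arterial and capillary genes was not tested.

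Lymphatic genes differed among themselves. Flt4, the VEGF-C receptor of lymphatic and some capillary endothelium, was lower in the same genotypes as the blood vessel genes, with levels of 10.61, 11.07, 10.0, 10.68 and 11.20 in wild type, 9.84, 9.80, 8.94, 9.59 and 11.01 in Falcor-/-, 8.22, 8.80, 8.43 and 8.28 in Foxa2+/-, and 7.83, 7.28, 8.38 and 8.46 in Double-Het. Its changes were -2.28 in Foxa2+/- and -2.72 in Double-Het, without overlap (limma adjusted p = 0.000755 and 7.83e-05).

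Lyve1, a hyaluronan receptor of lymphatic endothelium and of some tissue macrophages, was at 14.09, 14.48, 12.16, 12.84 and 14.23 in wild type, 11.13, 11.34, 9.83, 11.49 and 12.80 in Falcor-/-, 11.74, 12.03, 12.19 and 11.86 in Foxa2+/-, and 9.21, 9.74, 9.67 and 10.49 in Double-Het. Double-Het was the lowest genotype, at 7.27% of wild type (change -3.78 ± 0.50 SE, limma adjusted p = 0.000110), and its libraries overlapped no wild type and no Foxa2+/- library. Lyve1 also fell in Falcor-/-, to 21.2% (-2.24, limma adjusted p = 0.0139), in a call that held in each of the 10 fits without 1 library and was lost in the fit of these 2 genotypes alone (adjusted p = 0.0529). In Foxa2+/- its difference was -1.60 (limma adjusted p = 0.0713), and without wild type replicate 3 it was -1.95 and passed (adjusted p = 0.0163).

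Prox1, the factor that sets lymphatic identity and that neuroendocrine cells also carry, was low and uneven, at 7.03, 6.99, 9.09, 8.86 and 6.42 in wild type, 7.08, 6.67, 6.75, 6.53 and 6.36 in Falcor-/-, 9.09, 6.86, 7.22 and 7.18 in Foxa2+/-, and 5.92, 6.75, 6.28 and 7.03 in Double-Het. Wild type replicates 3 and 4 and Foxa2+/- replicate 11 stood at 8.86 to 9.09, and every other library was at 7.22 or below. It passed no comparison, with differences from wild type of -1.0, -0.09 and -1.18 (limma adjusted p = 0.165, 0.959 and 0.142). The 95% interval of the Foxa2+/- difference ran from -1.20 to 1.02.

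**Figure D4:**
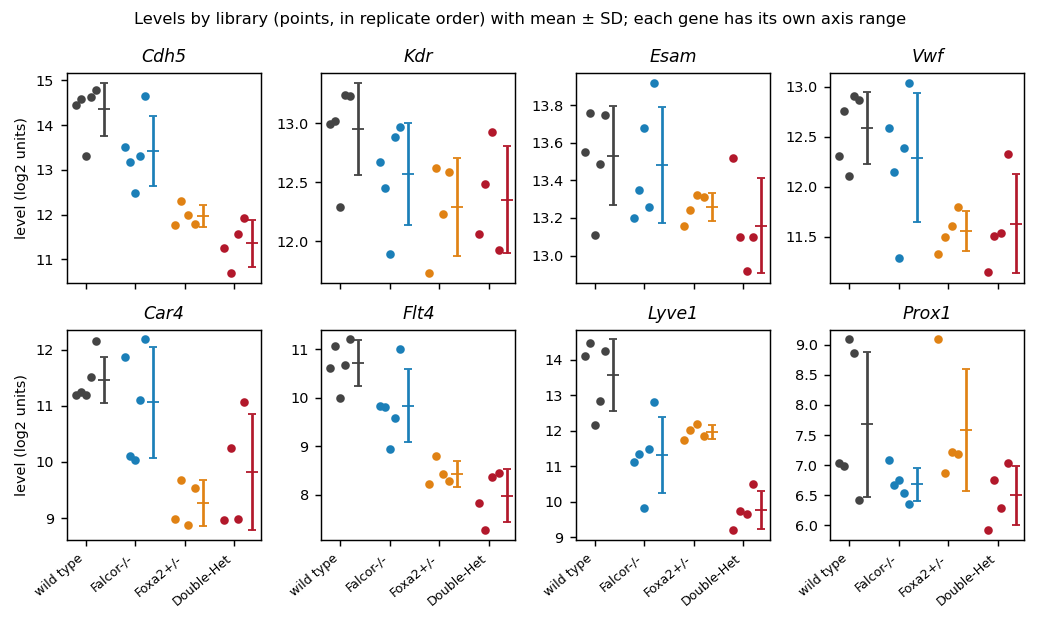
Log2 level of selected endothelial genes in each library (points in replicate order), with the mean and SD of each genotype; each panel has its own axis range. Cdh5, Car4 and Flt4 step down from wild type to Foxa2+/- and Double-Het, Kdr and Esam overlap in all genotypes, Lyve1 is lowest in Double-Het, and Prox1 is high in 3 libraries.

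The order of the genotype means was wild type, Falcor-/-, Foxa2+/-, Double-Het for 32 of the 38 genes. For Kdr, Nos3, Vwf and Car4, Double-Het was above Foxa2+/-, and for Lyve1 and Prox1, Falcor-/- was below Foxa2+/-. Between Foxa2+/- and Falcor-/-, 26 of the 38 genes were lower in Foxa2+/- and 0 higher, where 8.56% of all genes tested were lower and 8.1% higher, and the median difference was -1.36. Without Foxa2+/- replicate 13 this count was 11. Between Double-Het and Falcor-/-, 29 of the 38 were lower in Double-Het and 0 higher, where 3.0% of all genes tested were lower and 2.15% higher, and the median difference was -1.75. Cldn5 had the largest of these differences, -2.49 (limma adjusted p = 0.00271), with Double-Het at 17.8% of the Falcor-/- level.

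Neighbours in that order separated poorly at the lower end. Between Double-Het and Foxa2+/-, 1 of the 38 genes was lower in Double-Het and 0 higher, where 1.37% of all genes tested were lower and 1.06% higher, and the median difference was -0.37. The gene was Lyve1, at -2.18 (limma adjusted p = 0.0385), and its adjusted p was 0.0570 to 0.123 in 7 of the 8 fits without 1 library (each Foxa2+/- library and Double-Het replicates 15 to 17), while the difference stayed between -2.25 and -1.99 there. For 6 genes (Tek, Eng, Thbd, Ednrb, Plvap and Lyve1) all Double-Het libraries lay below all Foxa2+/- libraries, where 5.38% of all genes tested did.

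To compare vessel types within a library, each gene was also set against the mean of 8 genes of endothelium in general (Cdh5, Cldn5, Pecam1, Esam, Tie1, Tek, Kdr and Erg) in the same library. This is a description, with no test, and the gene's wild type distance is taken as 0. On this relative scale Gja4 was at 0.11 ± 0.15 (SD over libraries), -0.31 ± 0.16 and -0.06 ± 0.33 in Falcor-/-, Foxa2+/- and Double-Het, so against these 8 genes its mean stayed within 0.31 log2 units of the wild type distance. The other arterial gene, Gja5, was at -0.21 ± 0.28, -0.33 ± 0.38 and -0.07 ± 0.70. Plvap was at -0.16 ± 0.36, -0.54 ± 0.14 and -0.64 ± 0.21, and Aplnr at -0.45 ± 0.36, -0.58 ± 0.45 and -0.23 ± 0.28. Car4 was at 0.25 ± 0.54, -0.38 ± 0.34 and 0.53 ± 1.06. Ednrb, the other aerocyte gene, was at -0.24 ± 0.11, 0.52 ± 0.30 and -0.37 ± 0.29, opposite in sign to Car4 in each genotype with this reference. Capillary genes therefore did not share a direction against these 8 genes, and the signs depended on the reference, as given below.

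Lyve1 lay below its wild type range on the relative scale in both genotypes that carry a mutant Falcor allele by label. It was at -1.58 ± 0.53 in Falcor-/-, 0.21 ± 0.16 in Foxa2+/- and -1.60 ± 0.49 in Double-Het, against an SD of 0.67 in wild type. Its libraries ranged from -2.42 to -1.10 in Falcor-/- and from -2.16 to -1.08 in Double-Het, and in wild type they ranged from -0.92 to 0.66, without overlap. Esam, Kdr and Vwf went the other way, at 1.54, 1.16 and 0.78 in Foxa2+/- and at 1.81, 1.58 and 1.22 in Double-Het. The other lymphatic genes did not follow Lyve1. The mean of Flt4 was below its wild type distance in each mutant genotype, by less than that of Lyve1 in Falcor-/- and Double-Het. The mean of Prox1, which was uneven between libraries, was above its wild type distance in Foxa2+/- and Double-Het. These relative values depended on the reference. Because Esam and Kdr are in it, it was also taken over the other 6 genes, a choice made after the values were seen. Against those 6 genes Lyve1 was at -1.43, 0.66 and -1.04. Its Falcor-/- libraries, at most -1.01, still lay below the lowest wild type library at -0.94, while Double-Het reached -0.64 and overlapped wild type. Gja4 was then at 0.26, 0.14 and 0.50, so its sign turned in Foxa2+/- and Double-Het. Plvap was at -0.01, -0.09 and -0.08, close to its wild type distance, and Car4 was at 0.40, 0.07 and 1.10. The change of reference moves every gene of a library by the same amount. Car4 and Ednrb were then both above their wild type distance in Foxa2+/- and Double-Het, so their opposite signs there were lost.

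Markers of the macrophages that can carry Lyve1 moved with it in part. Of 12 genes of interstitial macrophages, 9 fell in Falcor-/-, 0 in Foxa2+/- and 9 in Double-Het, where 4.24%, 4.15% and 7.57% of all genes tested fell. Their mean level was 11.80 to 12.28 in wild type and 11.74 to 12.49 in Foxa2+/-. In Double-Het it was 8.85 to 9.25, and in Falcor-/- it was 8.81, 11.47, 8.71, 11.55 and 9.39 in replicates 6 to 10. C1qa, a complement gene of these cells, was at 13.97, 13.18, 13.08, 13.35 and 13.92 in wild type, 8.92, 13.15, 9.78, 13.73 and 9.83 in Falcor-/-, 13.90, 13.64, 14.10 and 13.17 in Foxa2+/-, and 10.49, 9.97, 9.58 and 9.60 in Double-Het. F13a1, a clotting factor subunit of such macrophages, was at 12.15, 11.81, 11.66, 11.86 and 11.86 in wild type, 4.81, 10.87, 5.91, 10.39 and 7.52 in Falcor-/-, 12.37, 12.01, 13.09 and 11.60 in Foxa2+/-, and 6.35, 5.70, 6.16 and 5.03 in Double-Het. Mrc1, a mannose receptor of macrophages that some endothelium also carries, passed in none of the 3 genotypes (limma adjusted p = 0.159, 0.978 and 0.146). Its levels were 13.78, 13.21, 13.92, 13.75 and 13.51 in wild type, 13.77, 12.73, 10.50, 13.24 and 12.66 in Falcor-/-, 13.94, 13.51, 13.95 and 13.37 in Foxa2+/-, and 11.30, 12.98, 11.56 and 13.86 in Double-Het. Falcor-/- replicate 6 and Double-Het replicate 18 lay within the wild type range of Mrc1, although C1qa was low in both. Lyve1 in Falcor-/- replicates 7 and 9, where the macrophage mean was nearest to wild type, was 11.34 and 11.49, against 11.13, 9.83 and 12.80 in replicates 6, 8 and 10. The part of macrophages in the Lyve1 result was not tested.

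Endothelial genes outside the 38 were counted from a separate list. Of 35 listed, 33 were tested: 5 fell and 1 rose in Falcor-/-, 24 fell in Foxa2+/- and 27 fell in Double-Het, with 0 rises in the latter. The shares of all genes tested that fell were 4.24%, 4.15% and 7.57%, and 5.23% rose in Falcor-/-. Gata2, a factor of endothelial and blood cells, fell, with changes of -2.22 in Foxa2+/- and -2.93 in Double-Het (limma adjusted p = 0.000686 and 3.69e-05). Sparcl1, a matrix protein of vessels, fell in all 3 genotypes, with changes of -1.17, -2.10 and -2.79 (limma adjusted p = 0.0256, 0.000737 and 3.82e-05). She, an adaptor protein, fell in the Foxa2 genotypes (-2.27 and -2.73).

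Ligands and growth factors of vessels were listed with 18 genes, of which 15 were tested. In Falcor-/- 0 fell, in Foxa2+/- 12 fell and in Double-Het 10 fell, with 0 rises and median differences of -0.45, -1.15 and -1.37, beside the same shares over all genes tested. Edn1, the endothelin precursor that endothelium makes and Ednrb receives, was at 11.45, 11.15, 10.32, 11.73 and 11.42 in wild type, 10.76, 10.51, 10.52, 10.53 and 11.51 in Falcor-/-, 9.61, 10.01, 9.96 and 9.45 in Foxa2+/-, and 8.20, 8.01, 8.08 and 8.42 in Double-Het. It fell, with changes of -1.46 in Foxa2+/- and -3.04 in Double-Het (limma adjusted p = 0.00161 and 4.07e-06), and it was lower in Double-Het than in Foxa2+/- (-1.58, limma adjusted p = 0.00537). Apln, the ligand of Aplnr from aerocytes and tip cells, had changes of -2.79 and -2.36 (limma adjusted p = 0.000595 and 0.000197). Efnb2, the ephrin of arteries, fell in both (-1.43 and -1.79). Vegfa, the Kdr ligand that alveolar type 1 cells supply, was chosen after its values were seen: it fell in both, with changes of -0.59 and -0.70 (limma adjusted p = 0.0380 and 0.00830).

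Genes of the cells that lie next to vessels were lower in the same libraries. Of 15 pericyte and smooth muscle genes, 11 were tested, and 0, 7 and 8 fell in Falcor-/-, Foxa2+/- and Double-Het, where 4.24%, 4.15% and 7.57% of all genes tested fell. Over the 12 of them present, the mean level was 7.92 to 9.18 in wild type, 7.64 to 9.14 in Falcor-/-, 6.82 to 7.41 in Foxa2+/- and 6.62 to 7.06 in Double-Het. Pdgfrb, the pericyte receptor for PDGF, fell in the Foxa2 genotypes (-2.52 and -2.82). Of 13 fibroblast genes tested, 5, 6 and 12 fell, against the same shares, and their mean level was 11.84 to 12.95, 11.04 to 12.37, 10.54 to 11.90 and 10.21 to 10.49 in the 4 genotypes. Pdgfra, the fibroblast receptor for PDGF, fell in all 3 (-1.34, -2.48 and -2.99). As for the endothelial genes, wild type replicate 3 was the lowest wild type library and Falcor-/- replicate 10 the highest Falcor-/- library in both lists.

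Alveolar type 1 genes, whose cells share the gas exchange barrier with capillaries, fell in 0, 8 and 9 of 12 cases, where 4.24%, 4.15% and 7.57% of all genes tested fell and 5.23%, 1.96% and 7.21% rose. Their mean level was 13.85 to 14.82 in wild type, with replicate 3 lowest, 13.96 to 14.78 in Falcor-/-, with replicate 10 highest, 13.62 to 13.71 in Foxa2+/- and 13.63 to 13.88 in Double-Het. Of 10 alveolar type 2 genes 0 changed in any of the 3 genotypes. Of 20 epithelial identity genes 3, 2 and 6 rose and 0 fell, with means of 13.52 to 13.62, 13.62 to 13.86, 13.68 to 13.79 and 13.69 to 13.93. Of 14 leukocyte genes 3 fell and 1 rose in Falcor-/-, 0 changed in Foxa2+/- and 2 fell in Double-Het. Of 4 tested genes of red cells and megakaryocytes 1, 1 and 3 fell, and of 8 airway genes 0 fell and 1 rose, in Double-Het. In Foxa2+/- and Double-Het the lower endothelial levels thus came with lower pericyte, fibroblast and alveolar type 1 levels and with level or higher epithelial levels. In Falcor-/- 0 pericyte and 0 alveolar type 1 genes fell, and 5 fibroblast genes did. The part of each in the endothelial result was not tested.

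**Figure D5:**
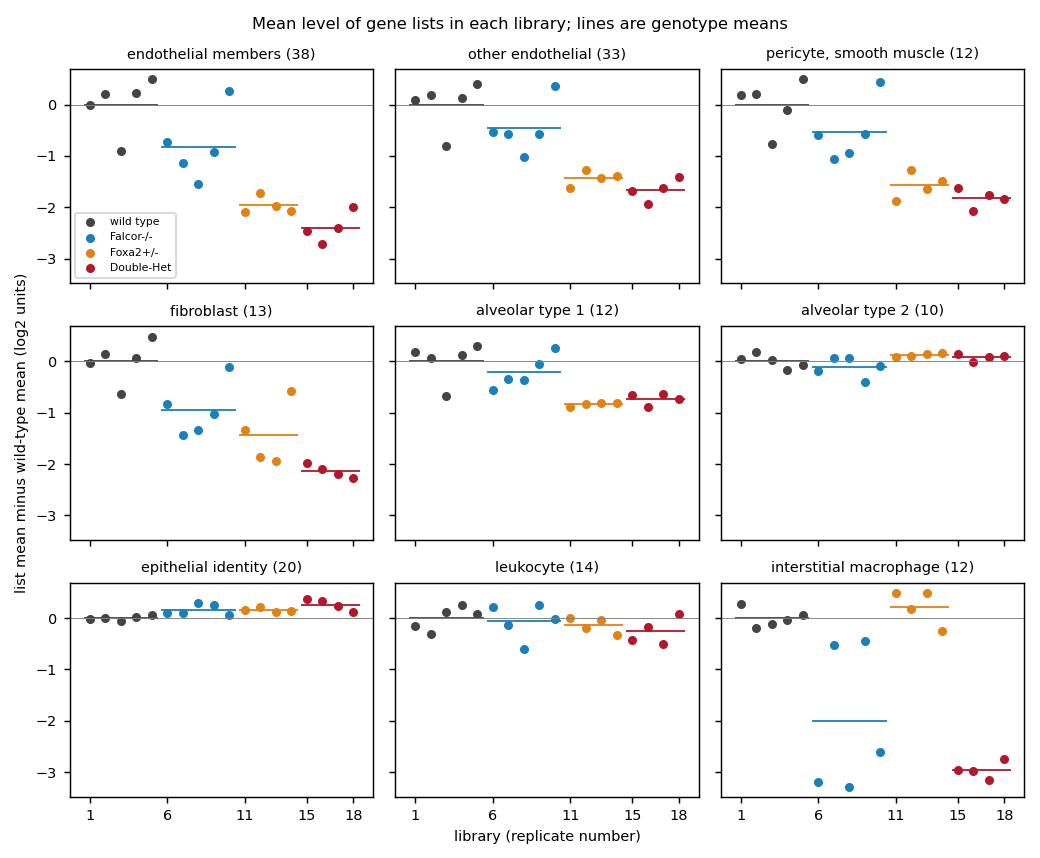
Mean log2 level of gene lists in each library, minus the wild type mean of the list, plotted against replicate number, with horizontal lines at genotype means. Endothelial, pericyte, fibroblast and alveolar type 1 lists share the dip at replicate 3 and the high point at replicate 10, and they are low from replicate 11 on. As exceptions, the fibroblast mean of replicate 14 (11.90) is just above that of replicate 3 (11.84). The alveolar type 1 means of replicates 15 (13.86) and 17 (13.88) are also just above that of replicate 3 (13.85). The epithelial list stays near 0, and the macrophage list is low in Falcor-/- replicates 6, 8 and 10 and in Double-Het.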

How the data were processed

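Log2 expression levels per Ensembl gene were deposited by the authors for 15544 genes in each of 18 libraries of EpCAM+ lung cells. Per the submitters' processing notes, STAR, the mm9 genome and limma were used. For the read counter, strand setting, filter and versions, no statement was found in the labels. Levels span 1.0 to 18.73, with nearly the same distribution in every library (medians 11.03 to 11.03), so a change common to most genes could not be seen, and depth is unknown. No pseudocount was added. Symbols came from GENCODE vM21 by Ensembl identifier (14994 matched, 550 did not). Levels of genes that overlap others on either strand may share reads.

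Genes with a mean below 6 were left out (295), leaving 15249. The 18 libraries were fitted together in limma 3.58.1 (R 4.3.3), with a mean for each genotype, empirical Bayes with an intensity trend, 2-sided contrasts and Benjamini-Hochberg adjustment, and was tested on simulated data. A change is the first genotype minus the second in log2 units. The members, the 11 further lists, the tests and the naming rule were set with earlier results of these data known. Library values are given for capillary, arterial and lymphatic genes, Cdh5, Cldn5, Pecam1, Kdr and Erg, and the 3 largest and 3 smallest Double-Het changes. Of each other list, the 3 genes with the smallest p in that comparison could be named, and F13a1, C1qa and Mrc1. The alternatives were no filter, no trend, library weights, the 2 genotypes alone, centring on epithelial genes and leaving out each library.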

Additional observations from a re-analysis of the deposited data

Results flagged for a closer look

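In 14 of 152 sets of 4 or 5 libraries (38 genes in 4 genotypes), 1 library lay far from the others by Dixon's ratio, which chance alone gives in about 1 of 20. Wild type replicate 3 accounted for 11 of them, as the lowest wild type library. Its levels were 13.31 for Cdh5, 13.58 for Ptprb, 12.29 for Kdr, 11.93 for Flt1 and 11.93 for Tie1. They were 10.11 for Robo4, 13.41 for Thbd, 13.03 for Cd93, 11.36 for Clec14a, 10.01 for Sox7 and 8.04 for Tal1. The other 4 wild type libraries were at 14.46 to 14.79 for Cdh5 and at 9.20 to 9.52 for Tal1.

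Foxa2+/- replicate 12 was the highest of its genotype for Plvap, at 12.02 against 11.47 to 11.50, and for Gja4, at 8.88 against 8.30 to 8.39. Foxa2+/- replicate 11 was the highest for Prox1, at 9.09 against 6.86 to 7.22. These sets share libraries and are not independent of each other.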

How the results depend on the processing

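The counts of endothelial genes that fell against wild type, 33 in Foxa2+/- and 35 in Double-Het, ran from 31 to 35 and from 33 to 37 over all alternatives. In Falcor-/- the count of 3 became 0 in a fit of the 2 genotypes, 14 with libraries centred on epithelial genes, and 1 to 32 without libraries (32 without both wild type replicate 3 and Falcor-/- replicate 10). Between Foxa2+/- and Falcor-/- the count of 26 became 11 to 30 without 1 library. Between Double-Het and Foxa2+/- the count of 1 became 4 with library weights, 3 in a fit of the 2 genotypes and 0 to 2 without 1 library.

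Counts over all genes moved more. Library weights gave 3446 for Falcor-/-, 1947 for Foxa2+/- and 4939 for Double-Het against wild type, where the main counts were 1444, 932 and 2254. They gave 4757 between Foxa2+/- and Falcor-/- (main count 2540) and 2125 between Double-Het and Foxa2+/- (370). Fits of 2 genotypes gave 483 for Falcor-/- against wild type, 1181 between Foxa2+/- and Falcor-/- and 342 between Double-Het and Falcor-/- (785). Fits without libraries gave 354 to 3926, 556 to 1139 and 1342 to 2435 against wild type. Between mutants they gave 764 to 4742 for Foxa2+/- and Falcor-/-, 412 to 1233 for Double-Het and Falcor-/-, and 90 to 381 for Double-Het and Foxa2+/-.

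Centring on epithelial genes gave 2757, 1519 and 4478 against wild type and moved the median of all genes from 0.03, 0.04 and 0.07 to -0.13, -0.12 and -0.20. Lower and higher calls went from 647 and 797 to 2444 and 313 in Falcor-/-, from 633 and 299 to 1413 and 106 in Foxa2+/-, and from 1154 and 1100 to 4216 and 262 in Double-Het. Between mutants they went from 1305 and 1235 to 1366 and 726 (Foxa2+/- minus Falcor-/-), from 457 and 328 to 961 and 149 (Double-Het minus Falcor-/-), and from 209 and 161 to 242 and 55 (Double-Het minus Foxa2+/-).

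In 13 differences of single endothelial genes the direction turned in at least 1 alternative, and in none of those fits was the difference below the threshold. Without libraries Esam ranged from -0.267 to 0.0198 in Falcor-/-, Prox1 from -0.593 to 0.260 in Foxa2+/- against wild type, and Prox1 from -0.359 to 0.0112 between Double-Het and Falcor-/-. Between Double-Het and Foxa2+/- the ranges without libraries were -0.304 to 0.129 for Emcn, -0.133 to 0.202 for Kdr, -0.255 to 0.0869 for Robo4, -0.218 to 0.153 for Mmrn2 and -0.159 to 0.235 for Vwf. They were -0.228 to 0.0868 for Sox18, -0.253 to 0.216 for Aplnr, -0.274 to 0.0305 for Gja4 and -0.320 to 0.115 for Gja5. In the same comparison library weights gave 0.0068 for Esam, -0.0842 for Kdr and -0.126 for Vwf, and centring gave -0.0484 for Kdr and -0.0341 for Vwf. The cause of these shifts was not tested.

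No paired analysis was possible because replicate numbers run from 1 to 18 and no number occurs in 2 genotypes. Depth is unknown, so counting error could not be set apart from the spread between libraries.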
